A study of Mus musculus with 6 samples.

Results

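The splicing factor genes described here are 69 of the 55487 genes in the deposited table. They were defined by name, as the genes whose symbol begins with Srsf and a digit, Hnrnp, Sf3a or Sf3b and a digit, Snrp, or Lsm and a digit. This rule was set with earlier results of these data known. Of 71 such rows, 2 ending in -ps were left out, and 65 of the 69 are annotated as protein coding and 4 as pseudogenes. The Srsf family has 11 members, the Hnrnp family 21, the Sf3 family 9, the Snrp family 15 and the Lsm family 13. RNA was measured in LSK cells from bone marrow, a lineage-negative population marked by Sca-1 and Kit, in which haematopoietic stem cells and early progenitors are found. The comparison is between 3 libraries from Mc5r-/- mice, called Mc5r-null below, and 3 libraries from wild-type littermates. Mc5r encodes a melanocortin receptor. The series describes the mice of both genotypes as irradiated, and gives no dose, time, age or strain. Nothing says which part of Mc5r is deleted, or how many mice stand behind a library, so the spread behind the p-values is that between libraries and may be technical only.

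Splicing removes introns in the spliceosome, which is built from small nuclear ribonucleoproteins (snRNPs). Each snRNP holds an RNA and a ring of 7 Sm or LSM proteins, encoded by Snrp and Lsm genes. The SF3A and SF3B complexes, encoded by Sf3 genes, hold the U2 snRNP at the branch point. SR proteins, encoded by Srsf genes, bind exons and recruit the spliceosome, and hnRNP proteins bind the nascent RNA and often oppose them. Mutations of SRSF2 and SF3B1 are common in human myelodysplastic syndromes, so these genes are well known in blood-forming cells.

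The targeted gene had 0, 0 and 1 counts in the Mc5r-null libraries and 181, 157 and 198 counts in the wild-type libraries. All gene counts summed to between 13983016 and 14076870 per Mc5r-null library and to between 14903723 and 14953169 per wild-type library. Markers of LSK and of other cell types differed between the genotypes. The summed level of 8 LSK markers was 1652 to 1671 CPM in Mc5r-null and 1297 to 1331 CPM in wild-type libraries, where CPM stands for counts per 1000000 counts of a library, scaled by edgeR's TMM factors, and 6 of the 8 were higher at an adjusted p under 0.05. Plasma and B cell markers summed to 2849 to 5880 CPM in Mc5r-null, with replicate 3 lowest, and 1816 to 1866 CPM in wild-type libraries (7 of 8 higher and 1 lower). Erythroid markers summed to 116 to 118 CPM in Mc5r-null and 15.4 to 16.8 CPM in wild-type libraries (5 of 6 higher). Neutrophil markers summed to 3935 to 4274 CPM in Mc5r-null and 5935 to 6363 CPM in wild-type libraries (6 of 6 lower). Basophil and mast cell markers summed to 101 to 108 CPM in Mc5r-null and 316 to 325 CPM in wild-type libraries (5 of 5 lower). T and NK cell markers summed to 206 to 213 CPM in Mc5r-null and 264 to 267 CPM in wild-type libraries (1 higher and 1 lower of 2 tested among 4). Macrophage markers summed to 57.0 to 58.1 CPM in Mc5r-null and 69.7 to 71.5 CPM in wild-type libraries (1 higher and 3 lower of 4). None of these markers was at 0 in every library, and their part in the results below was not tested. In such bulk samples, fewer cells of a type and less RNA per cell cannot be told apart.

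Most splicing factor genes were measured at nearly the same level in both genotypes. Of the 69 members, 65 had at least 10 counts in at least 3 libraries and were tested. At an adjusted p under 0.05 in edgeR's quasi-likelihood test, 4 members were higher and 13 lower in Mc5r-null cells, together 26.2% of the tested members. Over all 15348 genes tested, 32.8% passed this test, 16.7% higher and 16.0% lower. The members' share of calls therefore lay somewhat below that of all genes. The median of their log2 fold changes (Mc5r-null over wild type) was -0.06, beside -0.005 for all genes, and the median of the absolute log2 fold changes was 0.10, beside 0.19. The median standard error (SE) of these values was 0.04 for members and 0.09 for all genes, and sizes were not compared at equal SE. Of the tested members, 60% had a log2 fold change below 0, beside 50.7% of all genes. The libraries of the genotypes did not overlap in 29 members and in 48.1% of all genes. Among genes that passed the test, they did not overlap in 17 of 17 members and in 5018 of 5027 genes. A gap between the genotypes in such a gene, as described below, is therefore nearly given by its call.

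The changes that passed were small. Only Srsf7 and Sf3b6, 2 of the 17 called members, differed by at least 1.2-fold, a size reached by 65.5% of all called genes. Here too, sizes were not compared at equal SE, and a gene with a larger SE needs a larger change to be called. Over the 65 tested members, the variance of counts between Mc5r-null libraries was a median 1.12 times the counting variance, beside 1.03 for all genes tested, and between wild-type libraries 2.07 times, beside 1.05. Counting error alone gives a median of 0.693. Relative to counting error, the members varied more between libraries than all genes did, most clearly in wild type. At a given relative spread this ratio rises with a gene's counts, so it does not compare relative spread. With the DESeq2 Wald test on the same genes, 1 member was higher and 5 were lower. With libraries scaled by their total counts alone, which shifts the median of all genes to -0.038, 3 were higher and 22 lower.

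**Figure D1:**
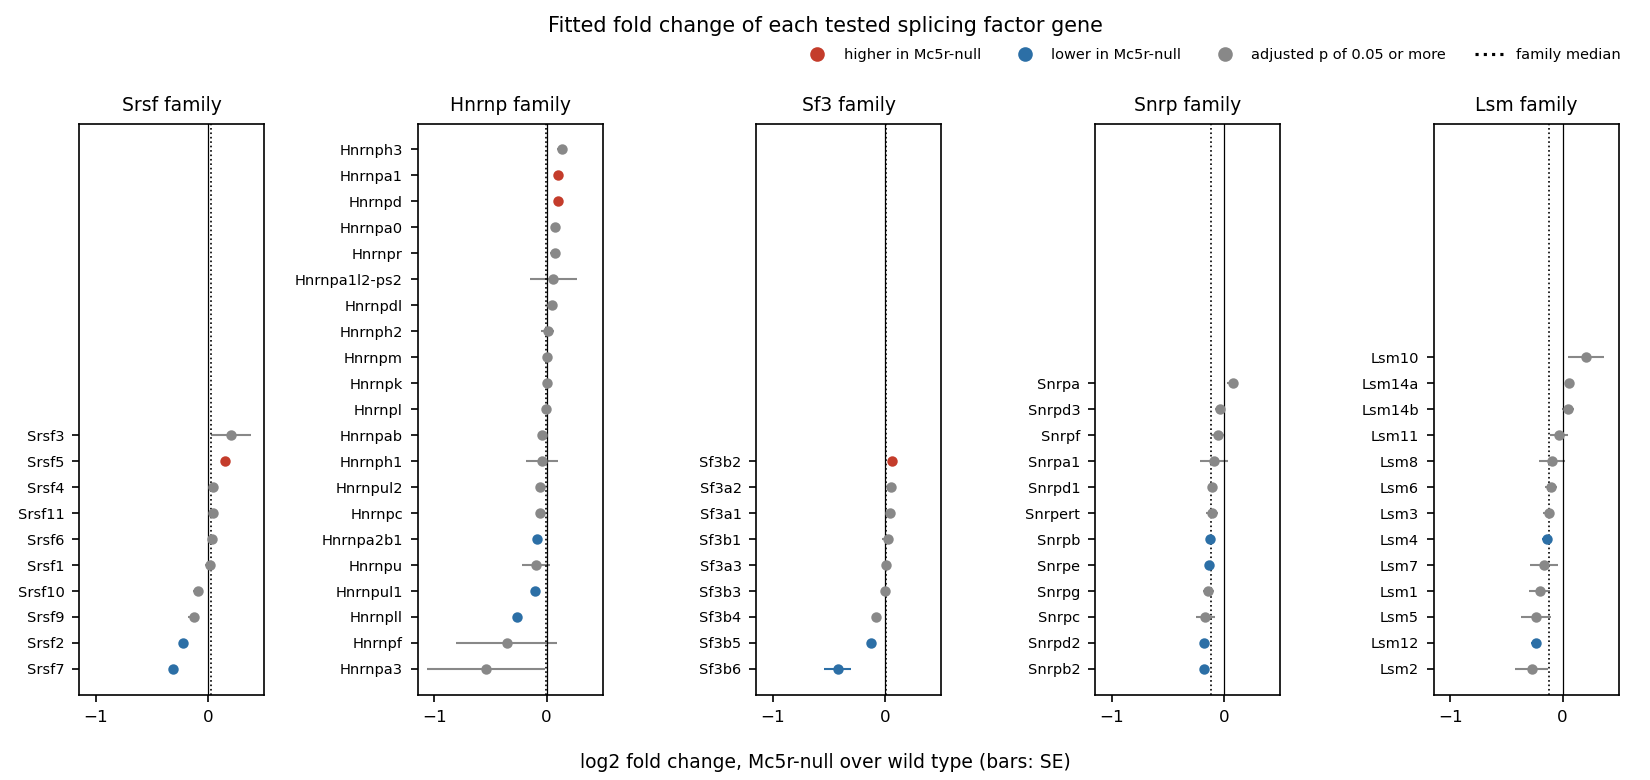
Log2 fold change of Mc5r-null over wild-type libraries for each of the 65 tested members, by family, with the standard error as a bar; red and blue points passed the test. The dotted family medians are near 0 for Srsf (0.03), Hnrnp (-0.002) and Sf3 (0.01) and lie at -0.12 for Snrp and Lsm.

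The calls are given by family below, and no difference between families was tested. The Srsf family had 1 member higher and 2 lower of 10 tested, and its median log2 fold change was 0.03. The Hnrnp family had 2 higher and 3 lower of 21, with a median of -0.002. The Sf3 family had 1 higher and 2 lower of 9, with a median of 0.01. In the Snrp family 4 of 12 were lower and 0 higher, and in the Lsm family 2 of 13 were lower and 0 higher, both with a median of -0.12. The share of calls was 33.3% for Snrp and for Sf3, 23.8% for Hnrnp and 15.4% for Lsm. That of Srsf lay between the shares of Hnrnp and Snrp. Among all genes tested the share was 32.8%, with 16.7% higher and 16.0% lower. At an unadjusted p under 0.05 in edgeR, 6 Snrp and 3 Lsm genes were lower and 0 higher, and DESeq2 also called 0 higher. Snrp genes summed to 1100 ± 18 CPM in Mc5r-null and 1172 ± 4 CPM in wild-type libraries, and Lsm genes to 597 ± 7 CPM in Mc5r-null and 633 ± 13 CPM in wild-type libraries (SD, n = 3 each).

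Among the SR protein genes, Srsf7 and Srsf2 were lower and Srsf5 higher in Mc5r-null cells. Srsf7 (GRCm38 chromosome 17, positions 80200080 to 80207307, minus strand) encodes an SR protein with a zinc knuckle that also joins splicing to mRNA export. It had 245, 244 and 242 CPM in the Mc5r-null libraries and 301, 298 and 305 CPM in the wild-type libraries. All 3 Mc5r-null libraries lay well below all 3 wild-type libraries, and the values within each genotype were nearly equal. The log2 fold change was -0.31 ± 0.02 (SE; edgeR adjusted p = 1.21e-05), the smallest p of any member. Srsf2 (chromosome 11, positions 116849901 to 116853094, minus strand), which encodes the SR protein also called SC35, had 449, 444 and 449 CPM in Mc5r-null and 515, 528 and 527 CPM in wild-type libraries. Its genotypes were again fully apart, with a log2 fold change of -0.23 ± 0.02 (SE; edgeR adjusted p = 3.92e-05). Both calls held in DESeq2, with each library left out in turn and in every other setting tried. Srsf2 overlaps Mettl23 and Mfsd11, which run on the opposite strand at 212 to 247 and 236 to 363 counts per library. They cannot be separated from Srsf2 if the authors counted without strand. Mfsd11 was lower as well, with a log2 fold change of -0.29 ± 0.09 (SE; edgeR adjusted p = 0.0443). Mettl23 did not pass, at -0.03 ± 0.07 (SE; edgeR adjusted p = 0.776).

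Srsf5 (chromosome 12, positions 80945504 to 80950507, plus strand), an SR protein gene known as an early response gene in rat liver, had 465, 480.1 and 446 CPM in Mc5r-null cells, against 409.7, 428 and 416 CPM in wild-type cells. The lowest Mc5r-null library stood above the highest wild-type library. The log2 fold change was 0.15 ± 0.03 (SE; edgeR adjusted p = 0.00576), and this call also held in every setting tried. Its near-identical copy Gm12966 moved the same way, with 198 ± 1.96 CPM in Mc5r-null and 171 ± 2.70 CPM in wild-type libraries (SD, n = 3 each) and a log2 fold change of 0.21 ± 0.02 (SE; edgeR adjusted p = 0.000342).

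CCGGAA stands in the promoter window of 6 of 11 SR genes, the called Srsf7, Srsf2 and Srsf5 and the uncalled Srsf1, Srsf4 and Srsf11. The 250 bases before their start sites are shown because Srsf7, Srsf2 and Srsf5 were the SR genes that passed the test. They are from RefSeq (GRCm38.p6), at chr17:80207306-80207555 on the minus strand, chr11:116853095-116853344 on the minus strand and chr12:80945249-80945498 on the plus strand. Capitals mark matches, on either strand, to CCGGAA (core of ETS factor sites), the NRF1 motif or CCAAT, the motifs of those searched that occur here.
Srsf7: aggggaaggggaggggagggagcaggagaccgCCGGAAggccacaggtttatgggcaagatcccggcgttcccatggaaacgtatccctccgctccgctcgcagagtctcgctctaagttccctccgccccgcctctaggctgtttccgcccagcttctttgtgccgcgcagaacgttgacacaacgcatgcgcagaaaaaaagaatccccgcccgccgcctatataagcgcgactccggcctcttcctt
Srsf2: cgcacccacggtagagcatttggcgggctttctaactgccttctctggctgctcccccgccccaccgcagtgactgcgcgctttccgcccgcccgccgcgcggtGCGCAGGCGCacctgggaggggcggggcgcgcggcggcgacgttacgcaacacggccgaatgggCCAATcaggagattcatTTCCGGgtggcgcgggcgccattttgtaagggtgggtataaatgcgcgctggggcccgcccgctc
Srsf5: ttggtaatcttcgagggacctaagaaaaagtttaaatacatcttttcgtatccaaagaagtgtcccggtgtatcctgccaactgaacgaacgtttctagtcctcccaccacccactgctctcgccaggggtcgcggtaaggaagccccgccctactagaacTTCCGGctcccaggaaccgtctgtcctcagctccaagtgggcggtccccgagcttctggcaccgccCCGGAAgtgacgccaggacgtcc
CCGGAA, or TTCCGG on the other strand, stands once in the Srsf7 and Srsf2 windows and at 2 places in the Srsf5 window. Promoters were given for 57 of the 69 members, and 23 of these (40.4%) hold CCGGAA, beside 22.6% of the 10208 promoters of tested genes and 12.2% of all 27025 promoters. It was found in 6 of 8 lower and 3 of 4 higher members with a promoter. CCAAT was found in 45.6% of member promoters and 36.9% of those of tested genes, the NRF1 motif in 12.3% and 8.44%, and TGACGT (part of a CREB site) in 15.8% and 10.5%. CACGTG (E-box) was found in 5.26% and 8.43%, and GAANNTTC (heat shock factor) in 7.02% and 5.02%. A match describes the letters in these windows and is not a binding site.

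The other SR genes did not pass the test. Srsf1, the founding SR protein gene, had 174, 172 and 168 CPM in the Mc5r-null libraries and 158, 177 and 174 CPM in the wild-type libraries and a log2 fold change of 0.02 ± 0.04 (SE; edgeR adjusted p = 0.792). Srsf6 had 408, 400.3 and 409 CPM in Mc5r-null and 402, 385 and 401 CPM in wild-type libraries, with a log2 fold change of 0.04 ± 0.02 (SE; edgeR adjusted p = 0.286). Srsf3, an SR protein gene that regulates the splicing of its own mRNA, was uneven within the Mc5r-null genotype. It had 203, 214 and 301 CPM in Mc5r-null cells, against 219, 195 and 207 CPM in wild-type cells, so replicate 3 stood above the other 5 libraries, which overlapped. Srsf4, Srsf9, Srsf10 and Srsf11 had log2 fold changes of 0.04 ± 0.03, -0.13 ± 0.05, -0.09 ± 0.04 and 0.04 ± 0.04 (each with its SE), with edgeR adjusted p from 0.0860 for Srsf9 to 0.507 for Srsf11. Srsf9 passed without wild-type replicate 3 (0.0239) and Srsf11 without Mc5r-null replicate 2 (0.0468). Srsf12 did not pass the filter, with 2, 7 and 0 counts in Mc5r-null and 4, 2 and 4 counts in wild-type libraries.

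Among the hnRNP genes that passed the test, Hnrnpll changed most. Its protein represses exons and is known for switching Ptprc (CD45) isoforms in T cells. Hnrnpll (chromosome 17, positions 80029487 to 80062334, minus strand) had 78.4, 78.1 and 79.0 CPM in the Mc5r-null libraries and 93.7, 94.7 and 94.0 CPM in the wild-type libraries. The genotypes were far apart relative to their spread, with a log2 fold change of -0.26 ± 0.03 (SE; edgeR adjusted p = 0.000338), and the call held in every setting tried. Its paralogue Hnrnpl had 515, 527 and 497 CPM in Mc5r-null and 500.1, 518 and 523 CPM in wild-type libraries, with overlapping libraries and a log2 fold change of -0.0024 ± 0.03 (SE; edgeR adjusted p = 0.958). The difference between these paralogues was not tested.

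Hnrnpa1 and Hnrnpd were higher in Mc5r-null cells. Hnrnpa1, whose protein antagonises SR proteins at many exons, had 569, 559 and 552 CPM in Mc5r-null cells, against 530.4, 515 and 516 CPM in wild-type cells. Its lowest Mc5r-null library exceeded its highest wild-type library, and the log2 fold change was 0.11 ± 0.02 (SE; edgeR adjusted p = 0.00469). Hnrnpd encodes AUF1, which binds AU-rich elements of unstable mRNAs, and had 254, 256 and 253 CPM in the Mc5r-null libraries and 234, 239 and 237 CPM in the wild-type libraries. Here too the genotypes were apart, with a log2 fold change of 0.10 ± 0.02 (SE; edgeR adjusted p = 0.00603). Hnrnpa2b1, the close relative of Hnrnpa1, went the other way with 1157, 1097 and 1138 CPM in Mc5r-null and 1227, 1197 and 1186 CPM in wild-type libraries, and all Mc5r-null libraries were below all wild-type ones. Its log2 fold change was -0.09 ± 0.02 (SE; edgeR adjusted p = 0.0173), and without wild-type replicate 1 the adjusted p was 0.0580. Hnrnpul1, a relative of the nuclear scaffold gene Hnrnpu, had 428, 429 and 431 CPM in Mc5r-null cells, against 463, 456 and 465 CPM in wild-type cells. These were 3 nearly equal values below 3 others, with a log2 fold change of -0.10 ± 0.02 (SE; edgeR adjusted p = 0.00255). DESeq2 did not call Hnrnpa1, Hnrnpd, Hnrnpa2b1 or Hnrnpul1, with adjusted p of 0.0921, 0.134, 0.224 and 0.108.

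**Figure D2:**
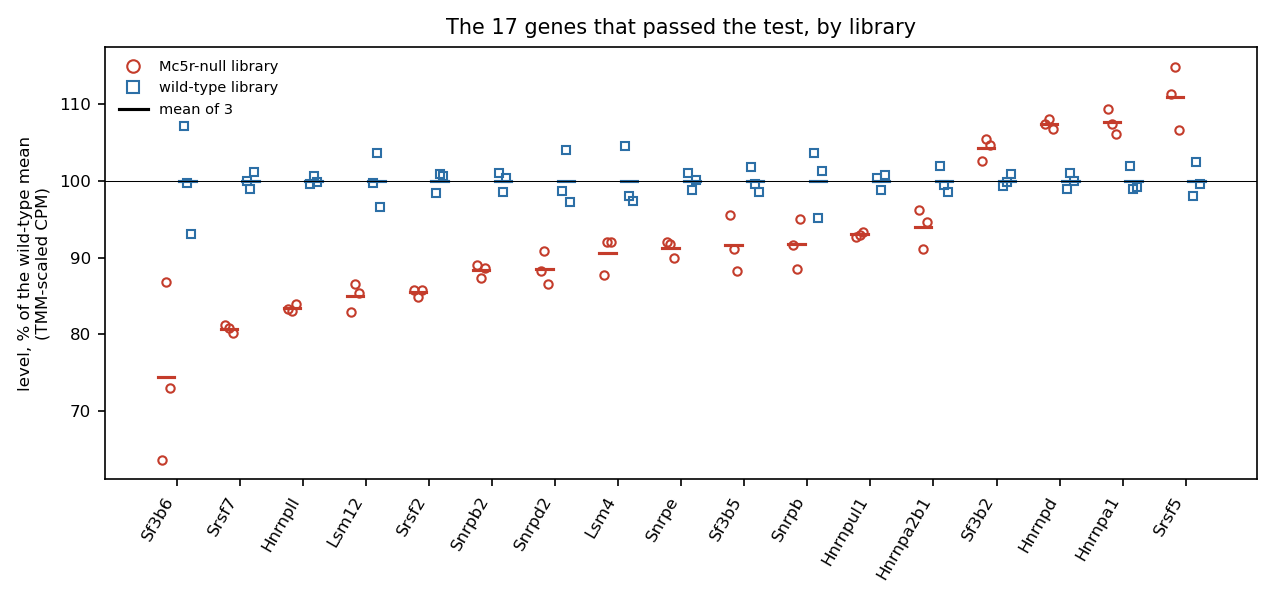
Level of each of the 17 members that passed the test in each library, as a percentage of the gene's wild-type mean; circles are Mc5r-null and squares wild-type libraries, and thick lines are means. In every gene the genotypes do not overlap, as in 5018 of all 5027 genes that passed. Apart from Sf3b6 and Srsf7 the means differ by less than 1.2-fold.

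Of the hnRNP genes without a call, Hnrnpk and Hnrnpm were the closest to no change. Hnrnpk, a poly(C)-binding protein gene, had 322, 320.1 and 315 CPM in the Mc5r-null libraries and 317, 323 and 316 CPM in the wild-type libraries and a log2 fold change of 0.0005 ± 0.02 (SE; edgeR adjusted p = 0.989). Hnrnpm had 330.1, 337 and 337 CPM in Mc5r-null and 339, 327 and 338 CPM in wild-type libraries and a log2 fold change of 0.0013 ± 0.02 (SE; edgeR adjusted p = 0.974). Hnrnpab and Hnrnpa0, the members with the highest level per exon length when counts in copies are left out, had log2 fold changes of -0.04 ± 0.02 (SE; edgeR adjusted p = 0.191) and 0.08 ± 0.03 (SE; edgeR adjusted p = 0.122). Hnrnpdl, a relative of Hnrnpd, and the Hnrnpu genes were not called either, with log2 fold changes of 0.05 ± 0.02 for Hnrnpdl, -0.06 ± 0.02 for Hnrnpul2 and -0.10 ± 0.13 for Hnrnpu (each with its SE). In the family that binds G-rich RNA, Hnrnph1, Hnrnph2 and Hnrnph3 had log2 fold changes of -0.04 ± 0.14, 0.01 ± 0.06 and 0.14 ± 0.05, and those of Hnrnpc and Hnrnpr were -0.06 ± 0.03 and 0.08 ± 0.04. None of these 8 genes passed, and the smallest edgeR adjusted p among them were 0.0538 for Hnrnpul2 and 0.0555 for Hnrnph3, whose genotypes did not overlap.

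Libraries of the same genotype differed by at least 1.4-fold in 6 members. This was 9.2% of the tested members, beside 8.8% of all genes tested at 10 CPM or more. The members' share has no such floor, and 1 of the 6, Hnrnpa1l2-ps2, lies below 10 CPM. The largest spread was in Hnrnpf, whose protein binds G-rich intron sequence. Hnrnpf (chromosome 6, positions 117900324 to 117925622, plus strand) had 2776, 7939 and 7740 counts in Mc5r-null and 8836, 8571 and 8300 counts in wild-type libraries. Replicate 1 of the Mc5r-null genotype stood far below every other library, and without it the edgeR adjusted p was 0.899 (log2 fold change -0.01). Its 6 near-identical copies together had 4573, 4769 and 4642 counts in Mc5r-null and 5239, 5393 and 5464 counts in wild-type libraries, with no such dip. The other uneven members were Hnrnpa3, Srsf3, Lsm2, Lsm10 and the pseudogene Hnrnpa1l2-ps2, and none of the 6 passed the test. Hnrnpa1l2-ps2 had 2.45, 2.02 and 2.24 CPM in Mc5r-null cells, against 2.72, 1.99 and 1.72 CPM in wild-type cells.

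Hnrnpa3, an abundant hnRNP gene, shows how the deposited counts divide among copies of a gene. Hnrnpa3 itself (chromosome 2, positions 75659261 to 75669407, plus strand) had 88, 239 and 112 counts in Mc5r-null and 161, 189 and 346 counts in wild-type libraries. Its 27 copies at other loci, most of them processed pseudogenes, together held 18411, 18323 and 18454 counts in Mc5r-null and 20927, 20762 and 20713 counts in wild-type libraries, or 99.0% of the joint counts. A copy here is an annotated transcript elsewhere that matches at least 200 bases of a protein-coding member, in the same orientation, at 95% identity or more. Copies that are members themselves were left out, and each copy was given to the 1 member with the longest match. The stretch from base 211 to base 330 of the Hnrnpa3 coding sequence (1074 bases, GENCODE M21) is shown beside 3 of its copies with most counts. Gm6793 lies at chr8:112014679-112014798 on the minus strand, Gm5641 at chr3:54481676-54481795 on the plus strand and Gm8991 at chr5:16730745-16730864 on the minus strand (GRCm38). Capitals mark, in Hnrnpa3, every base at which any of the 3 differs and, in a copy, the bases at which that copy differs.
Hnrnpa3: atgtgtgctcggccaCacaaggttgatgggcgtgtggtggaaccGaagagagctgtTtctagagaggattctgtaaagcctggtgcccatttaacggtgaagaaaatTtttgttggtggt
Gm6793: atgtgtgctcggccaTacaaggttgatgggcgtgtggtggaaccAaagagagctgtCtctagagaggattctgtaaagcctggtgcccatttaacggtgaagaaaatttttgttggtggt
Gm5641: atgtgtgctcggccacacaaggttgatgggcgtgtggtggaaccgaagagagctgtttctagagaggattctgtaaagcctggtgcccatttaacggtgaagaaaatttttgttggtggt
Gm8991: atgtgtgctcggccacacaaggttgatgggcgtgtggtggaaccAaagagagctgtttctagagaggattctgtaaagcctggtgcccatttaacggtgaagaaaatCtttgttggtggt
Gm6793 differs at 3 of these bases, Gm8991 at 2 and Gm5641 at 0. Gm5641 is identical to Hnrnpa3 over all 1074 coding bases, and the longest identical run is 289 bases in Gm6793 and 250 bases in Gm8991. The sources used here do not say how reads that fit several loci were assigned.

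Counts were also summed over a gene and its copies, in an alternative chosen after seeing the data. For Hnrnpa3 the joint counts were 18499, 18562 and 18566 in Mc5r-null and 21088, 20951 and 21059 in wild-type libraries. They gave a log2 fold change of -0.06 ± 0.01 (SE; edgeR adjusted p = 0.00666), against -0.54 ± 0.53 (SE; edgeR adjusted p = 0.501) for Hnrnpa3 alone. In all, 21 members had 71 such copies, and in 5 members the copies held more counts than the member did, namely Hnrnpa3, Lsm5 (81.5% in copies), Hnrnpa1 (66.9%), Snrpg (62.4%) and Hnrnpk (54.5%). Joint counts of Hnrnpa1 kept its direction, with a log2 fold change of 0.12 ± 0.02 (SE; edgeR adjusted p = 0.000649). Most of its copies' counts were in Gm10052, which had 899.8 ± 6.19 CPM in Mc5r-null and 812 ± 0.878 CPM in wild-type libraries (SD, n = 3 each) and a log2 fold change of 0.15 ± 0.01 (SE; edgeR adjusted p = 0.000120). Joint counts of Hnrnpk turned its value, which had been at 0, to -0.05 ± 0.02 (SE; edgeR adjusted p = 0.0377), and the copy Gm7964 alone had 342 ± 4.94 CPM in Mc5r-null and 364 ± 2.30 CPM in wild-type libraries (SD, n = 3 each) with a log2 fold change of -0.09 ± 0.02 (SE; edgeR adjusted p = 0.00881). With copies added, 4 members were higher and 19 lower. Among those lower only then were also Lsm5 (-0.24 ± 0.08), Hnrnpc (-0.09 ± 0.03) and Sf3b4 (-0.10 ± 0.03), each value being a log2 fold change with its SE. Their edgeR adjusted p were 0.0406, 0.0435 and 0.0494.

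**Figure D3:**
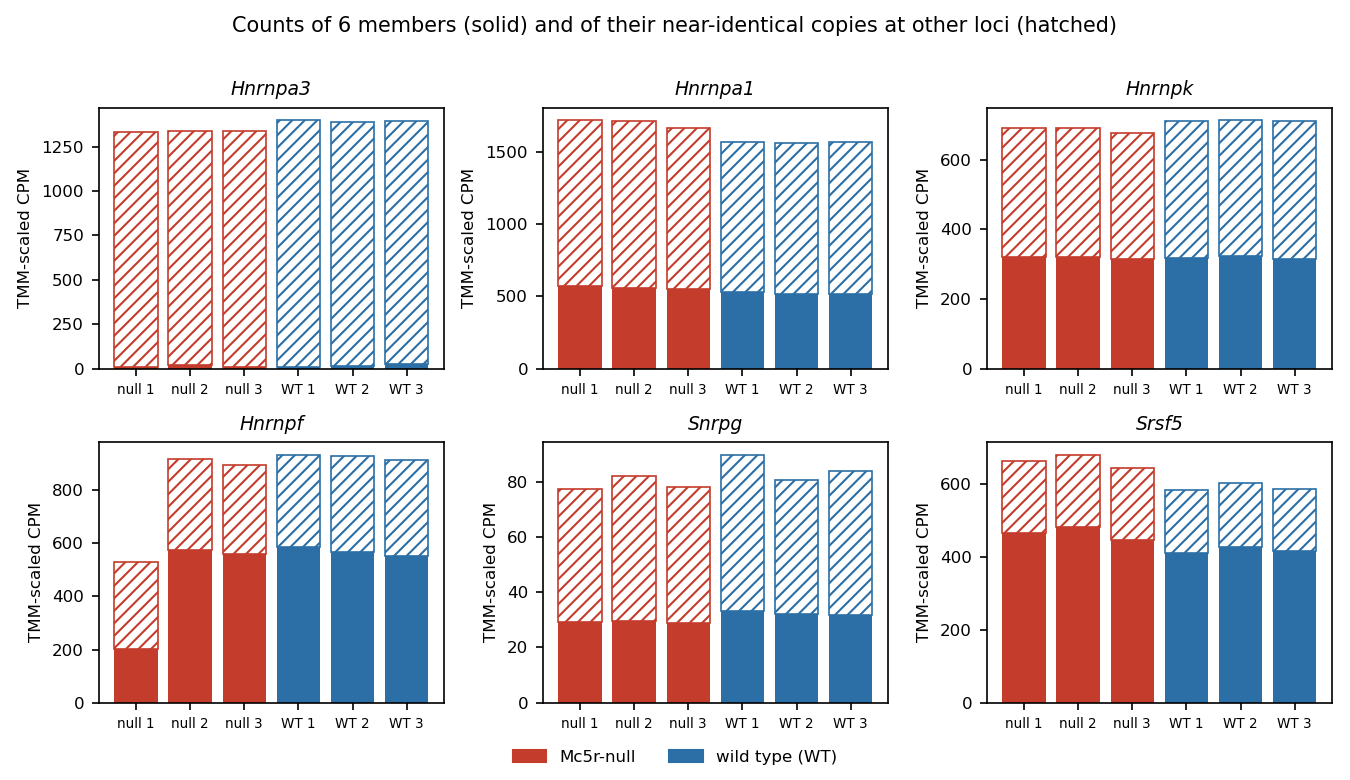
TMM-scaled CPM assigned to 6 members (solid) and to their near-identical copies at other loci (hatched) in each library, Mc5r-null in red and wild type in blue. Nearly all Hnrnpa3 signal is in copies, and the low solid bar of Hnrnpf belongs to Mc5r-null replicate 1.

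In the Sf3 family the SF3A complex held no call and SF3B held calls in both directions. Sf3a1, Sf3a2 and Sf3a3 had log2 fold changes of 0.04, 0.05 and 0.01, none of which passed, also at an unadjusted p under 0.05. Sf3b1, the SF3B scaffold that clamps the branch point, had 540.0, 602 and 533 CPM in the Mc5r-null libraries and 540.5, 545 and 563 CPM in the wild-type libraries. Its libraries overlapped, with a log2 fold change of 0.02 ± 0.05 (SE; edgeR adjusted p = 0.769). Sf3b3 had 388, 392 and 395 CPM in Mc5r-null and 387, 393 and 394 CPM in wild-type libraries and a log2 fold change of 0.0007 ± 0.02 (SE; edgeR adjusted p = 0.982). Sf3b2, the most abundant of the family by the deposited FPKM, had 525, 539.6 and 536 CPM in Mc5r-null cells, against 508, 511 and 516 CPM in wild-type cells. Its genotypes were narrowly apart, with a log2 fold change of 0.06 ± 0.02 (SE; edgeR adjusted p = 0.0363).

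Sf3b6 and Sf3b5, small SF3B subunits, were lower. Sf3b6, also called p14, contacts the branch point adenosine, and Sf3b6 (chromosome 12, positions 4817544 to 4827659, plus strand) had 49.6, 67.7 and 56.9 CPM in the Mc5r-null libraries and 83.5, 77.7 and 72.6 CPM in the wild-type libraries. The Mc5r-null libraries were uneven but all below the wild-type ones. The log2 fold change was -0.42 ± 0.12 (SE; edgeR adjusted p = 0.0450), the largest among called members, while leaving out single libraries gave edgeR adjusted p from 0.00284 (without Mc5r-null replicate 2) to 0.132 (without Mc5r-null replicate 3), and the call was lost without any library other than Mc5r-null replicate 2. Sf3b5 had 88.4, 84.3 and 81.6 CPM in Mc5r-null and 94.3, 92.2 and 91.2 CPM in wild-type libraries. These too were apart, with a log2 fold change of -0.13 ± 0.04 (SE; edgeR adjusted p = 0.0374) and, with single libraries left out, edgeR adjusted p from 0.0199 (without Mc5r-null replicate 1) to 0.111 (without Mc5r-null replicate 3). Both Sf3b5 and Sf3b2 passed without Mc5r-null replicate 1 and lost their call without any other library, Sf3b2 with edgeR adjusted p up to 0.114. DESeq2 called Sf3b6 (adjusted p = 0.00636) but neither Sf3b2 (0.376) nor Sf3b5 (0.251). Sf3b4 had a log2 fold change of -0.09 ± 0.03 (SE; edgeR adjusted p = 0.0869).

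The genes of the Sm and LSM rings all lay slightly below wild type. The Sm ring assembles on the U1, U2, U4 and U5 snRNAs, and the LSM ring with Lsm8 on the U6 snRNA, while the ring with Lsm1 acts in mRNA decay. All 7 Sm ring genes and all 8 LSM ring genes had log2 fold changes below 0, with medians of -0.12 and -0.15. Of all genes tested, 50.7% lay below 0. Of the 15 ring genes, 4 were lower and 0 higher at an adjusted p under 0.05, namely Snrpd2, Snrpb, Snrpe and Lsm4. That was 26.7% of the ring genes, beside 32.8% of all genes tested in either direction and 16.0% lower. The levels of the 15 genes summed to 1039, 1054 and 1068 CPM in Mc5r-null and to 1163, 1142 and 1128 CPM in wild-type libraries. DESeq2 called none of the 4 lower genes. Without wild-type replicate 2 or 3, 14 of the 15 stayed below 0, the exceptions being Snrpf without replicate 2 and Lsm8 without replicate 3. The grouping by ring was made with the fold changes known, so the shared sign is a description.

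Snrpd2, which encodes Sm D2, had 83.3, 85.8 and 81.6 CPM in Mc5r-null cells, against 93.1, 98.2 and 91.8 CPM in wild-type cells. The genotypes were apart, with a log2 fold change of -0.18 ± 0.04 (SE; edgeR adjusted p = 0.00943). Snrpb, which encodes the Sm B proteins and has the highest level per exon length of the ring genes when counts in copies are left out, had 275, 266 and 286 CPM in the Mc5r-null libraries and 311, 286 and 304 CPM in the wild-type libraries. Its wild-type minimum lay just above its Mc5r-null maximum, with a log2 fold change of -0.12 ± 0.04 (SE; edgeR adjusted p = 0.0367). Snrpe had 48.1, 48.0 and 47.0 CPM in Mc5r-null and 52.8, 51.7 and 52.3 CPM in wild-type libraries and a log2 fold change of -0.13 ± 0.04 (SE; edgeR adjusted p = 0.0384), a call lost without any 1 of the 6 libraries. Snrpb lost its call without wild-type replicates 1 or 3 or Mc5r-null replicates 1 or 2, with edgeR adjusted p up to 0.111. Snrpd3 and Snrpf, the Snrp genes closest to no change, had log2 fold changes of -0.04 ± 0.04 (SE; edgeR adjusted p = 0.573) and -0.05 ± 0.06 (SE; edgeR adjusted p = 0.570). Snrpd1 and Snrpg had log2 fold changes of -0.10 ± 0.03 (SE; edgeR adjusted p = 0.0514) and -0.14 ± 0.05 (SE; edgeR adjusted p = 0.0770), in non-overlapping libraries, and Snrpd1 passed without wild-type replicate 1 (edgeR adjusted p = 0.0463).

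Of the genes for the A, B″ and C proteins of the U1 and U2 snRNPs, Snrpb2 was lower. It encodes U2 B″, which binds a stem loop of the U2 snRNA, and had 65.6, 64.4 and 65.3 CPM in Mc5r-null cells, against 74.5, 72.7 and 74.0 CPM in wild-type cells. These were again 2 separate ranges, with a log2 fold change of -0.18 ± 0.03 (SE; edgeR adjusted p = 0.00493). Its paralogue Snrpa, which encodes the A protein of the U1 snRNP, had 144, 128 and 141 CPM in the Mc5r-null libraries and 126, 129.9 and 135 CPM in the wild-type libraries, overlapping libraries and a log2 fold change of 0.08 ± 0.05 (SE; edgeR adjusted p = 0.247). Snrpa1, for the A′ protein of U2, and Snrpc, for the C protein of U1, had log2 fold changes of -0.09 ± 0.13 (SE; edgeR adjusted p = 0.637) and -0.16 ± 0.09 (SE; edgeR adjusted p = 0.192). In DESeq2 the adjusted p of the 4 called Snrp genes ran from 0.0715 for Snrpb2 to 0.299 for Snrpe. Snrpert, an annotated pseudogene with the highest FPKM of the family, had 33.0, 35.3 and 34.6 CPM in Mc5r-null and 35.6, 37.3 and 37.9 CPM in wild-type libraries and a log2 fold change of -0.11 ± 0.05 (SE; edgeR adjusted p = 0.167). Snrpert matches Snrpe at 98.9% identity over 279 bases. Both are members, so their counts were not summed and each enters the family values separately. Snrpn did not pass the filter, with 8 counts in every Mc5r-null library and 6, 6 and 5 counts in wild-type libraries. The pseudogenes Snrp1c-ps1 and Snrp1c-ps2 did not pass it either, with 1 and 0 counts over all libraries.

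In the Lsm family, Lsm12 and Lsm4 were lower. Lsm12, an LSM-domain gene outside the rings (chromosome 11, positions 102162497 to 102185296, minus strand), had 53.4, 55.7 and 54.9 CPM in Mc5r-null cells, against 64.2, 66.7 and 62.2 CPM in wild-type cells. The genotypes were well apart, with a log2 fold change of -0.24 ± 0.04 (SE; edgeR adjusted p = 0.00392), and the call held in every setting tried. Lsm4, a member of both LSM rings and the Lsm gene with the highest FPKM, had 86.0, 90.1 and 90.2 CPM in the Mc5r-null libraries and 102, 96.1 and 95.5 CPM in the wild-type libraries. They did not overlap, with a log2 fold change of -0.14 ± 0.04 (SE; edgeR adjusted p = 0.0261), and leaving out replicate 1 of either genotype took the edgeR adjusted p up to 0.0821. DESeq2 did not call Lsm4 (adjusted p = 0.176). Lsm2 had 30.3, 44.9 and 33.9 CPM in Mc5r-null and 43.3, 46.9 and 41.9 CPM in wild-type libraries, where Mc5r-null replicate 2 lay among the wild-type libraries. Its log2 fold change was -0.28 ± 0.15 (SE; edgeR adjusted p = 0.219), and leaving that library out gave an edgeR adjusted p of 0.00467 (log2 fold change -0.46). Lsm1 and Lsm8, which set the decay ring apart from the U6 ring, had log2 fold changes of -0.20 ± 0.10 (SE; edgeR adjusted p = 0.141) and -0.10 ± 0.12 (SE; edgeR adjusted p = 0.587).

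The remaining Lsm genes showed no call. The ring genes Lsm3, Lsm5, Lsm6 and Lsm7 had log2 fold changes of -0.12 ± 0.05, -0.24 ± 0.13, -0.10 ± 0.06 and -0.17 ± 0.13 (each with its SE), the smallest edgeR adjusted p being 0.0866 for Lsm3. Lsm10 and Lsm11 belong to the U7 snRNP, which processes histone mRNA 3′ ends. Lsm10 had 10.8, 10.4 and 11.2 CPM in Mc5r-null cells, against 11.8, 7.36 and 8.96 CPM in wild-type cells, with the wild-type libraries scattered around the Mc5r-null ones, and without wild-type replicate 1 its edgeR adjusted p was 0.0444. Their log2 fold changes were 0.20 ± 0.16 (SE; edgeR adjusted p = 0.374) and -0.03 ± 0.08 (SE; edgeR adjusted p = 0.789). Lsm14a and Lsm14b, whose proteins are found in P-bodies, had log2 fold changes of 0.06 ± 0.03 (SE; edgeR adjusted p = 0.142) and 0.05 ± 0.05 (SE; edgeR adjusted p = 0.515).

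Levels of different members can be compared only per length. The deposited FPKM divide by a length equal to the sum of all distinct annotated exons of a gene, with overlapping exons counted each time, in 65 of 65 members (tolerance 0.01). This length was a median 1.47 times the merged exon length, and up to 3.45 times in Hnrnpc, so FPKM are lower than a value per merged length. Levels are therefore given as TMM-scaled CPM per kilobase of merged exons. On this scale, and without the counts of near-identical copies, Hnrnpab was highest, at 368 ± 8 in Mc5r-null and 378 ± 7 in wild type (SD, n = 3 each). Hnrnpa0 followed at 263 ± 8 in Mc5r-null and 249 ± 10 in wild type, clear of the next genes in both genotypes. Those were, in Mc5r-null cells, Hnrnpa1 at 178 ± 3, Hnrnpa2b1 at 172 ± 5 and Srsf2 at 151 ± 1. Hnrnpf averaged 146 ± 69 there, with 65.7 in replicate 1 and 188 and 183 in the other libraries, which lay above Hnrnpa1. In wild-type cells they were Hnrnpf at 186 ± 6, Hnrnpa2b1 at 183 ± 3, Srsf2 at 177 ± 2 and Hnrnpa1 at 165 ± 3. Hnrnpa1 and Hnrnpa2b1 in Mc5r-null cells, and Hnrnpf and Hnrnpa2b1 in wild-type cells, lay within about their spread of each other. Snrpb led the protein-coding Snrp genes, at 140 ± 5 in Mc5r-null and 152 ± 7 in wild type. Lsm4, the highest Lsm gene, was at 85.5 ± 2.3 in Mc5r-null and 94.4 ± 3.7 in wild type. Sf3b2, the highest Sf3 gene, was at 78.2 in Mc5r-null and 75.0 in wild type. Of the tested protein-coding members the lowest in Mc5r-null cells was Hnrnpa3, at 1.96 ± 1.07. In wild-type cells Lsm11 was lowest, at 2.75 ± 0.09, with Hnrnpa3 at 2.85 ± 1.2. With the counts of copies added and divided by the member's own length, the order changed. Hnrnpa1 was then highest, at 539 ± 9 in Mc5r-null and 497 ± 1 in wild type, ahead of Hnrnpab, and Hnrnpa3 reached 248 ± 0.7 in Mc5r-null and 258 ± 0.9 in wild type.

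**Figure D4:**
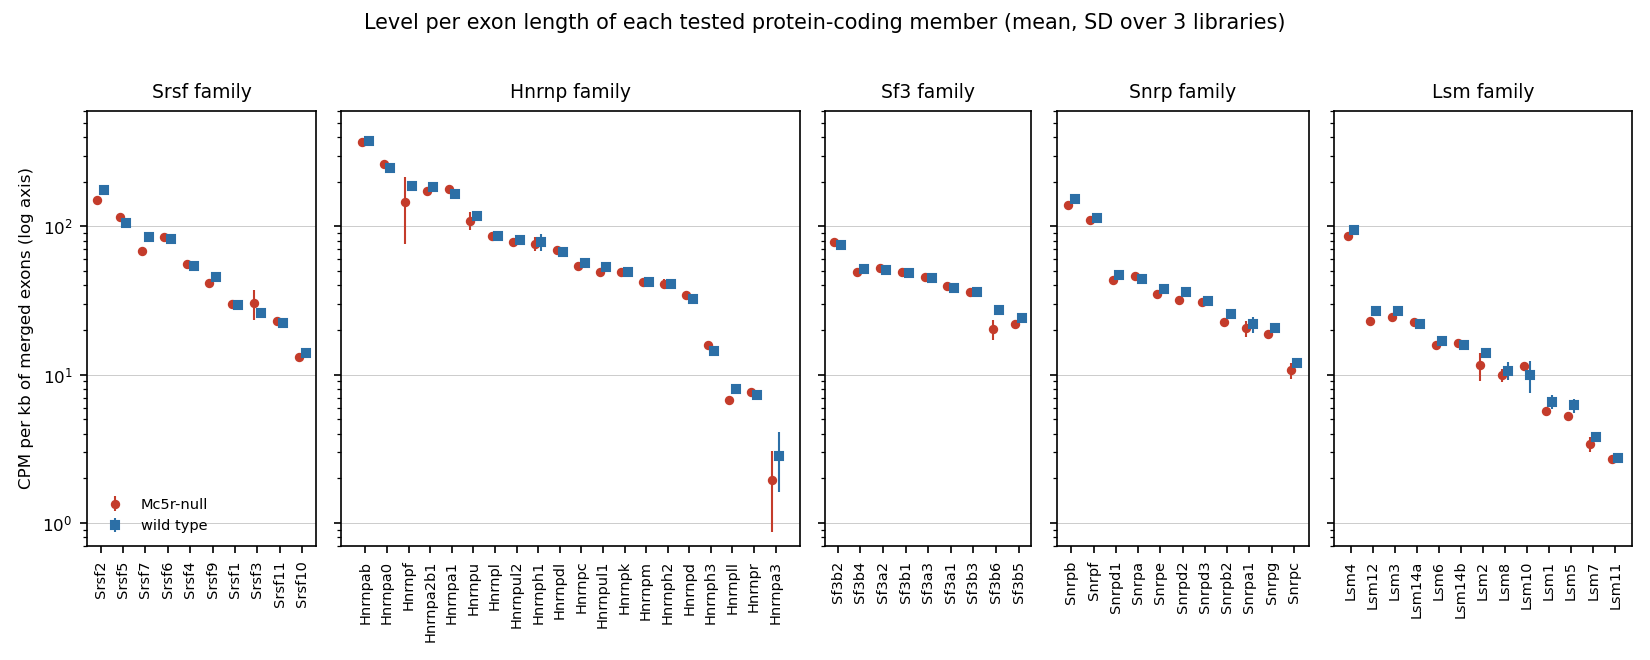
TMM-scaled CPM per kilobase of merged exons (log axis) for each tested protein-coding member, as mean and SD of 3 Mc5r-null (circles) and 3 wild-type libraries (squares), ordered within each family by wild-type level. Levels span from 368 for Hnrnpab down to 1.96 for Hnrnpa3 in Mc5r-null, and from 378 for Hnrnpab down to 2.75 for Lsm11 in wild type. The genotypes nearly coincide for most genes.

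Other splicing genes outside the name rule were described from 11 lists of 168 genes, all tested. Of these, 19 were higher and 27 lower, and the median log2 fold change was -0.02, and their share of calls was 27.4%, beside 26.2% of the members and 32.8% of all genes tested (16.7% higher, 16.0% lower). The SMN complex and snRNP assembly list has 18 genes, whose products load the Sm ring onto snRNA. Of these, 4 were lower and 0 higher (22.2% called), with a median of -0.10. At an unadjusted p under 0.05 in edgeR, 2 of them were higher and 6 lower. Strap had 234 ± 5.55 CPM in Mc5r-null and 264 ± 2.76 CPM in wild-type libraries (SD, n = 3 each) and a log2 fold change of -0.17 ± 0.02 (SE; edgeR adjusted p = 0.00105). Clns1a, which encodes the Sm chaperone pICln, had 105 ± 4.06 CPM in Mc5r-null and 119 ± 4.08 CPM in wild-type libraries (SD, n = 3 each), with a log2 fold change of -0.18 ± 0.04 (SE; edgeR adjusted p = 0.00975). Ddx20 (Gemin3) had a log2 fold change of -0.21 ± 0.05 (SE; edgeR adjusted p = 0.0118). The summed level of this list was 1030 ± 10 CPM in Mc5r-null and 1117 ± 5 CPM in wild-type libraries (SD, n = 3 each).

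The 30 other RNA-binding splicing regulators held the largest changes, with 6 higher and 6 lower. Their share of calls was 40.0%, beside 32.8% of all genes tested. Log2 fold changes in this list ran from -0.73 to 1.02. Msi2, a regulator of haematopoietic stem cells, had 216 ± 2.54 CPM in Mc5r-null and 136 ± 2.36 CPM in wild-type libraries (SD, n = 3 each) and a log2 fold change of 0.66 ± 0.03 (SE; edgeR adjusted p = 3.1e-07). Rbfox2 had 13.6 ± 0.373 CPM in Mc5r-null and 6.68 ± 0.632 CPM in wild-type libraries (SD, n = 3 each), with a log2 fold change of 1.02 ± 0.10 (SE; edgeR adjusted p = 0.000113). Pcbp1, a poly(C)-binding protein gene, had a log2 fold change of -0.18 ± 0.02 (SE; edgeR adjusted p = 8.58e-05). For comparison, the largest log2 fold change of a called member was -0.42, in Sf3b6.

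Genes of the core spliceosome outside the families held calls in both directions. The share of calls was 25.0% for the catalytic spliceosome, 26.3% for U5 and the tri-snRNP, and 33.3% for U1 and the 5′ splice site. It was 18.2% for the branch point and 3′ splice site and 10.0% for the minor spliceosome, beside 32.8% of all genes tested. Of 24 genes of the catalytic spliceosome 1 was higher and 5 lower, each value here being a log2 fold change with its SE, among them Dhx38 (-0.18 ± 0.03), Crnkl1 (-0.23 ± 0.04) and Bud31 (-0.23 ± 0.05). Of 19 genes of U5 and the tri-snRNP 2 were higher and 3 lower, with Prpf38b at -0.21 ± 0.03, Sart1 at 0.12 ± 0.03 and Prpf6 at 0.12 ± 0.03. In that list 14 genes lay below 0, the median was -0.08, and at an unadjusted p under 0.05 in edgeR 2 were higher and 8 lower. For U1 and the 5′ splice site, 2 of 9 were higher and 1 lower, with Luc7l3 at 0.25 ± 0.03 and Snrnp70 at 0.11 ± 0.02. Of 11 branch point and 3′ splice site genes 1 was higher (Puf60, 0.09 ± 0.02) and 1 lower (Dhx15, -0.08 ± 0.02), and of 10 minor spliceosome genes 1 was lower (Snrnp48, -0.18 ± 0.05).

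Genes acting with the SR and LSM families differed in their share of calls. It was 18.8% for SR-like regulators, 12.5% for SR protein kinases, 44.4% for LSM partners in mRNA decay and 35.7% for nonsense-mediated decay, beside 32.8% of all genes tested. Of 16 SR-like regulators 2 were higher (Sfswap, 0.14 ± 0.04, and Rnps1, 0.12 ± 0.04) and 1 lower (Tra2b, -0.08 ± 0.02). Of 8 kinases that phosphorylate SR proteins 1 was higher (Clk3, 0.12 ± 0.03). Among 9 partners of the LSM ring in mRNA decay 1 was higher (Edc3, 0.15 ± 0.03) and 3 lower, including the decapping cofactor gene Dcp1a (-0.32 ± 0.06) and Edc4 (-0.13 ± 0.04). Nonsense-mediated decay, the route by which many SR genes limit their own mRNA, had 3 of 14 genes higher and 2 lower. Its kinase gene Smg1 had 189 ± 4.06 CPM in Mc5r-null and 159 ± 2.18 CPM in wild-type libraries (SD, n = 3 each) and a log2 fold change of 0.25 ± 0.03 (SE; edgeR adjusted p = 0.000192), Smg6 had a log2 fold change of 0.23 ± 0.03 (SE; edgeR adjusted p = 0.00104), and Smg8, an inhibitor of the Smg1 kinase, one of -0.51 ± 0.07 (SE; edgeR adjusted p = 0.000773).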

How the data were processed

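Poly-A RNA of LSK cells was sequenced as paired-end stranded libraries, per the labels' protocols. The authors deposited whole-number counts per gene, without normalization, and FPKM values beside them. CASAVA 1.8, HISAT2, StringTie, edgeR and GRCm38 are named in the submitters' processing notes without roles, so the counting program and its use of strand are not given in the sources used here. The FPKM served for naming genes and for the length comparison. CPM values here are counts per 1000000 of the TMM-scaled library total.

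The counts were fitted in R 4.3.3 with edgeR 4.0.16 (TMM, robust quasi-likelihood F-test) over the 15348 genes with at least 10 counts in at least 3 of the 6 libraries. Genes were called at a Benjamini-Hochberg adjusted p under 0.05 over all genes tested, and standard errors were derived from the F statistic. Depth, 13983016 to 14953169 counts per library, limits genes with few counts. The fit was tested on simulated data with 200 changed genes. All pairs of libraries of a genotype differed by more than sampling noise over genes, so none was merged as a library deposited more than once. Libraries with the same replicate number did not deviate together: the correlations of their deviations were 0.0147, -0.0415 and -0.0233 over genes. The fit has no replicate block.

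The members, lists and rules were chosen with earlier results of these data known. Genes were named by this rule: in each family up to 8 called members with the smallest p, the member with the highest mean FPKM, the 2 closest to no change, members that failed the filter, and up to 3 called genes of each companion list, of which 1 is not reported here. Members were also named by their place in a family or complex. Overlapping genes, copies and uneven members were named after their values were seen. Near-identical copies were found with blastn 2.17.0 in GENCODE M21 transcripts. The 18 alternatives were RLE, upper-quartile and total-count scaling, DESeq2 1.42.0, limma-voom 3.58.1, 3 other filters, the replicate block, a fit without immunoglobulin genes, an adjusted p under 0.01, each library left out, and copies added to their member.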

Additional observations from a re-analysis of the deposited data

How the results depend on the processing

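None of the 17 called members changed sign in the 18 alternatives. Of the 48 tested members without a call, 14 changed sign in at least 1 alternative, and the value on the other side passed the test for Hnrnpk alone, at 0.0005 in the reported fit and -0.053 with near-identical copies added; the cause was not tested. Under RLE scaling, filterByExpr and a filter of 1 CPM in 3 libraries all 65 tested members stayed on their side of the threshold. With DESeq2, 11 calls were lost, leaving 1 member higher and 5 lower; by family this left 0 higher and 1 lower for Hnrnp, 0 and 1 for Sf3, 0 lower for Snrp and 1 lower for Lsm. Total counts alone gave 22 members lower, with 4 lower in Srsf, 6 in Hnrnp, 0 higher in Sf3, and medians of -0.0357 for Hnrnp and -0.0264 for Sf3, a shift built into that scaling. Sf3 had 0 higher under upper-quartile scaling. Without a filter Sf3 had 0 higher and 1 lower. With the replicate block, 3 members were higher and 10 lower, with 0 higher and 1 lower in Sf3 and 1 lower in Lsm. With copies added, Hnrnp had 6 lower and a median of -0.0392. At an adjusted p under 0.01, 7 members were lower, with 0 higher and 0 lower in Sf3, 2 lower in Snrp and 1 lower in Lsm. Leaving out each library in turn gave 8 to 11 members lower, the 8 without wild-type replicate 1, and 3 to 4 higher. By family it gave 1 to 2 higher in Srsf, 0 to 1 higher and 0 to 1 lower in Sf3, 2 to 3 lower in Snrp, and 0 to 1 higher and 1 to 3 lower in Lsm. Of the 17 called members, 10 stayed called without each library, and Srsf7, Srsf2, Srsf5, Hnrnpll and Lsm12 stayed called in every alternative run. The 4 members below the filter, with 8 counts or fewer per library, were not tested.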

Other observations

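One transcript opposite to a member was nearly missing from 1 Mc5r-null library. Gm12992, annotated on the strand opposite Srsf4, had 279, 268 and 2 counts in Mc5r-null libraries and 258, 257 and 257 counts in wild-type libraries, while Srsf4 itself had 197, 199 and 196 CPM in Mc5r-null and 182, 199 and 194 CPM in wild-type libraries. Another transcript, 4933440N22Rik, lies opposite Hnrnpf and had 99, 115 and 102 counts in Mc5r-null and 45, 46 and 33 counts in wild-type libraries. In all, 31 members overlap another annotated gene.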
